A study of Mus musculus with 2 samples.

Results

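The cells described here carried transcripts of Irf8 and Ly86 without the abundant primary granule transcripts of granulocyte-monocyte progenitors. They were 88 of the 14101 cells kept from 2 single-cell libraries, 47 of 7001 in the Brd9 knockout library and 41 of 7100 in the control library. A kept cell had at least 1000 genes, at least 2000 UMIs (unique molecular identifiers, each standing for 1 captured transcript) and at most 10% mitochondrial UMIs. A cell entered the gate with Irf8 and Ly86 summing to at least 4 UMIs. It also needed fewer than 30 UMIs of Mpo plus Prtn3, fewer than 30 of S100a8 plus S100a9 and fewer than 4 of the mast cell and basophil genes Ms4a2, Mcpt8, Gzmb and Fcer1a. Cells with 2 or more UMIs of both Flt3 and Ighm were left out. The cells were thus selected on the measured UMIs of these 12 genes, whose levels are given as a description only.

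Irf8 encodes a transcription factor that directs progenitors towards monocytes and dendritic cells and away from neutrophils. Ly86, also called MD-1, encodes the secreted partner of the Toll-like receptor relative Cd180 on myeloid and B lineage cells. Monocyte-dendritic progenitors are classically recognised by Csf1r, Flt3 and Cx3cr1 together with Kit, and give rise to monocytes, conventional dendritic cells and plasmacytoid dendritic cells. In the fetal liver, where blood is formed before birth, they are rare among cells that are mostly becoming red cells.

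Both libraries came from Lineage-negative, c-Kit-positive fetal liver cells of C57BL/6 embryos at E14.5, prepared with a 10x Genomics 3' kit. The knockout genotype was CD45.2(+) Vav1-iCre Brd9fl/fl and the control genotype CD45.2(+) Brd9fl/fl, so both carried floxed Brd9 alleles and only the knockout carried the recombinase, which the Vav1 promoter drives in blood cells. The protein Brd9 reads acetylated histones through its bromodomain and is found in the non-canonical form of the BAF remodelling complex. No library had the recombinase without floxed Brd9, so the effects of the recombinase and of the deletion cannot be told apart. The sources used here do not say how many embryos were pooled. The sort on Kit set which cells could be counted, so cells that had lost Kit were not measured. Each genotype had a single library, so the differences lack a replicate check and the genotypes could not be tested against each other. Intervals are at 95% and cover counting error only. All are exact apart from those of differences between gates and of ratios of shares.

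The libraries held 271350214 and 292972312 UMIs in 7289 and 7399 barcodes, knockout first, and 16 barcodes occurred in both, none of them gated. The gated cells held 1390462 and 1291907 UMIs, with medians of 23122 and 28025 UMIs per cell. Female cells, called by Xist, made up 58.4% of kept knockout cells and 22.5% of kept control cells. Among gated cells, 25 knockout and 6 control cells were female and 16 and 34 were male. The key values are therefore also given within each sex. A gene's level is its summed UMIs per 1000000 UMIs of the gated cells (CPM), and the ratio is knockout over control on the log2 scale.

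At the lower limit of the gate, more knockout than control cells lay next to the limit, and at the upper limit more control cells did. With every other limit met, 11 knockout and 7 control cells had exactly 3 UMIs of Irf8 plus Ly86, just outside, and 7 and 3 had exactly 4, just inside. Another 27 and 32 cells had 10 or more. At the upper limit, 7 and 10 gated cells had 20 or more UMIs of Mpo plus Prtn3. The limit on Flt3 and Ighm removed 25 knockout and 46 control cells. Irf8 was at 0 to 58 UMIs per cell in the knockout and 0 to 25 in the control, both with a median of 5. Ly86 had a median of 5 UMIs in the knockout, up to 20, and of 9 in the control, up to 21. Cells with 4 or more UMIs of each gene numbered 20 of 47 (42.6%) in the knockout and 23 of 41 (56.1%) in the control.

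**Figure D1:**
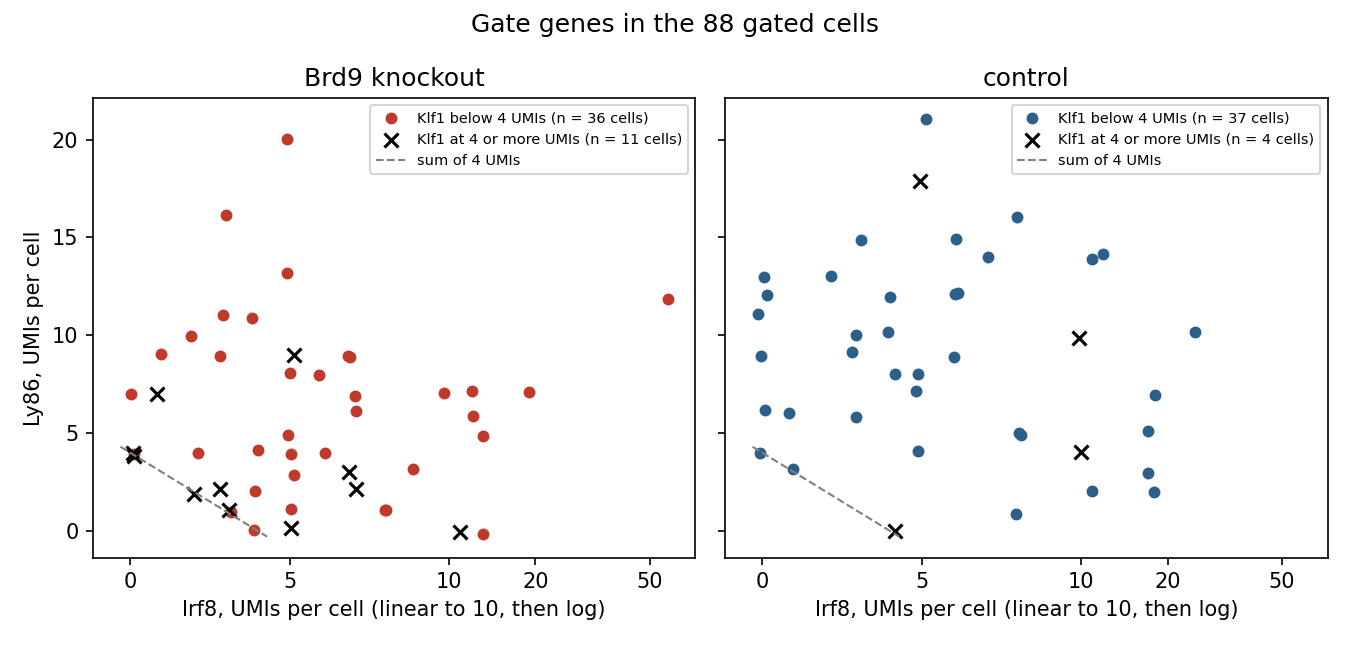
UMIs of Irf8 (horizontal axis, linear to 10 and then logarithmic) and Ly86 (vertical axis) in each gated cell, knockout left and control right, with points shifted slightly so that they do not overlap. Crosses mark the 11 knockout and 4 control cells with 4 or more Klf1 UMIs, and the dashed line marks the gate's sum of 4 UMIs, on and near which most knockout crosses lie.

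Some genes outside the gate went with the early monocyte and dendritic lineages in most of these cells, and other markers did not. Csf1r, the receptor for the growth factor of monocytes and macrophages, had at least 1 UMI in 40 of 47 knockout cells and 37 of 41 control cells. In cells thinned to 15000 UMIs each, leaving out 3 and 2 shallower cells, Csf1r was detected in 79.6% and 84.6% of cells, against 0.805% and 1.04% of erythroid cells thinned alike. Cd34, a progenitor surface protein, was detected in 84.1% and 92.3%, and the monocyte and dendritic gene Cst3 in every thinned cell. Cells with 30 or more Mpo plus Prtn3 UMIs, thinned alike, are called Mpo Prtn3 cells here. They held Csf1r in 28.9% and 34.9%, Cd34 in 89.0% and 91.5% and Cst3 in 98.4% and 98.6%. Cst3 was also in 74.5% and 74.9% of erythroid cells. Markers of monocytes, dendritic cells and macrophages ranged from nearly absent to present in most cells. Ly6c2, which marks classical monocytes, had 1 UMI in the knockout and 2 in the control, and Clec9a, a receptor of type 1 dendritic cells, 1 UMI in each. Thinned gated cells held Ly6c2 in 2.27% and 2.56%, below the 6.7% and 12.65% of Mpo Prtn3 cells. The monocyte gene F13a1 was likewise in 6.82% and 38.5% of thinned gated cells, below the 25.6% and 59.0% of Mpo Prtn3 cells. Thinned cells held the monocyte receptor Fcgr1 in 11.4% and 25.6%, the dendritic lectin Cd209a in 9.09% and 23.1%, and the macrophage gene Adgre1, which encodes F4/80, in 15.9% and 18.0%, against at most 0.353% of erythroid cells for any of them. Mpo Prtn3 cells were closer for 2 of these, with Adgre1 in 13.1% and 8.07% and Fcgr1 in 6.7% and 5.89%, and held Cd209a in 0.350% and 1.31%. The lymphoid genes Dntt and Rag1, the stem cell gene Procr and the liver macrophage genes Cd5l and Vsig4 had no UMI in the gated cells of either library, where 3 counts would be 2.16 and 2.32 CPM. The lymphoid gene Il7r, in contrast, was in 18.2% and 30.8% of thinned gated cells, against 1.05% and 2.94% of Mpo Prtn3 cells. Of the genes the gate did not use, Csf1r went with the label of monocyte-dendritic progenitors, and Cx3cr1 did in part. Cx3cr1 was in 47.7% and 38.5% of thinned cells, 19.4% and 19.0% of Mpo Prtn3 cells and 1.73% and 1.82% of erythroid cells. Kit was in 43.2% and 23.1%, below the 62.35% and 70.0% of Mpo Prtn3 cells and the 45.7% and 46.4% of erythroid cells. Neither Kit nor Cd34 marked the gated cells off from Mpo Prtn3 cells. Flt3, a gate gene, is no check of the label.

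The genes that stood furthest above all other kept cells in both libraries were not all monocyte genes. As a description of the gate, they included Cd74, the invariant chain of MHC class II, the cathepsins Ctsh and Ctss, the inhibitors of DNA binding Id2 and Id3, the endosomal exonuclease Pld4, the co-receptor Nrp1 and the deacetylase Hdac9. Hdac9 was at 543 CPM in the knockout gate and 558.9 in the control gate, against 11.7 and 15.2 in all other kept cells. Id2 was at 263 and 353.7 CPM against 3.37 and 4.59.

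The gate sets no limit on erythroid genes, and 11 knockout and 4 control cells had 4 or more UMIs of Klf1, the erythroid master regulator. They were large, with medians of 55807 and 71946.5 UMIs per cell against 20786.5 and 27972 in the other gated cells. They held 44.2% of the gated knockout UMIs and 23.7% of the gated control UMIs. The doublet caller Scrublet marked 10 of the 11 and all 4, and none of the other gated cells. Transcripts of both sexes were found in 5 and 1 of them and in none of the others. Irf8 plus Ly86 had a median of 5 UMIs in those of the knockout and 17 in those of the control, against 12.5 and 13 in the rest. One of the knockout cells also held nearly all of the Pf4, a platelet gene, at 219 CPM. Because these cells weigh unequally on the libraries, each main value is given for all gated cells and again for the 36 knockout and 37 control cells without them.

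Gated cells were rare in both libraries, and counting error did not separate their shares. They were 0.671% of kept knockout cells (0.494 to 0.892) and 0.578% of kept control cells (0.415 to 0.783), a ratio of 1.16 (0.766 to 1.76). Without the cells rich in Klf1 the ratio was 0.987 (0.624 to 1.56). The ratio fell below 1 when the same limits were applied to cells thinned to 15000 UMIs, at 0.653 (0.466 to 0.914) from 55 and 86 cells, a setting in which the upper limit admits cells with more Mpo and Prtn3. Within female cells without Klf1-rich cells the ratio was 1.88 (0.717 to 4.91), and within male cells 0.764 (0.394 to 1.48). A direction of the share is therefore not given by these data.

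Between the libraries, 6427 genes had a mean level of at least 20 CPM in gated cells and were compared. Their median log2 ratio was 0.04, and their 5th and 95th percentiles were -0.47 and 0.62. A log2 ratio of at least 0.5 in size counts as higher or lower here. By that rule 523 genes (8.14%) were higher in the knockout and 292 (4.54%) lower. With the further demand that the interval leaves out 0, these were 365 (5.68%) and 181 (2.82%). Without the cells rich in Klf1, 828 of the same genes (12.9%) were higher and 517 (8.04%) lower, on fewer cells. The lowest and highest genes with a mean of at least 50 CPM, seen in at least 20 cells, are named by rank. The lowest were Ccr2, Ifitm1, Bcl2, Ifitm3, Neat1, Mndal, Ifitm6, Cebpb, Bex6, Ms4a6c, Lst1 and Id3. The highest were Prkca, Commd10, Zfpm1, Pde4d, Susd1, Chchd10, Meis1, Ccne1, Atxn1, Tpm1, Mt1 and St6galnac3.

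**Figure D2:**
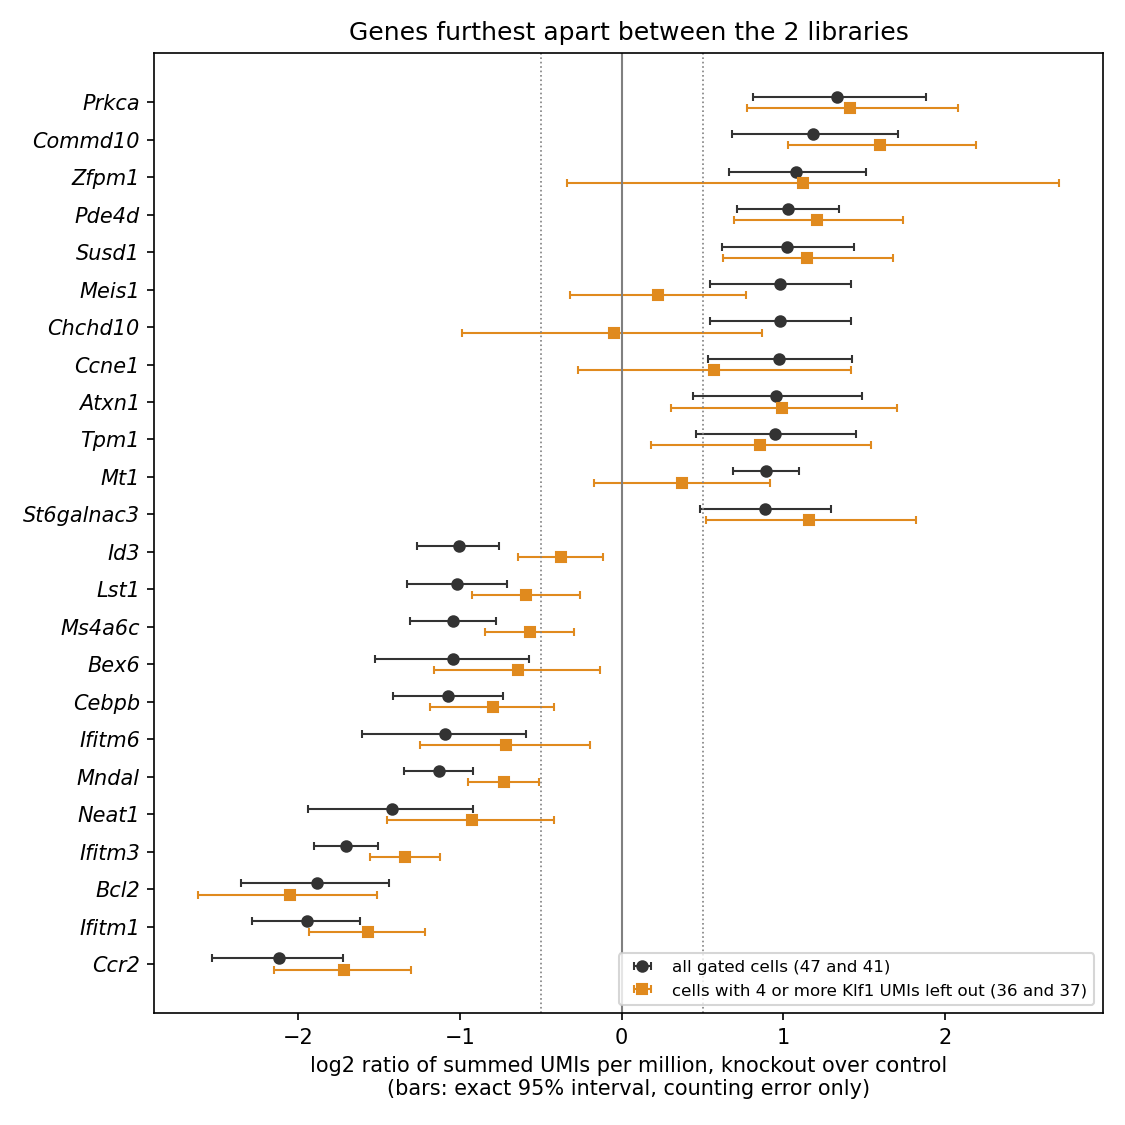
Log2 ratio of summed CPM, knockout over control (horizontal axis), of the 12 highest and 12 lowest genes by rank, with exact 95% counting intervals. Circles use all gated cells and squares leave out cells with 4 or more Klf1 UMIs; all 12 lower genes stay below 0 in both, whereas Chchd10 falls from 0.98 to -0.05, and dotted lines mark a log2 ratio of 0.5 in either direction.

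Ccr2, the chemokine receptor that draws monocytes out of the marrow and into tissue, was the lowest gene of the knockout gate. The gene lies at chr9:124101950-124113557 on the plus strand of GRCm38. Its level was 46.8 CPM (36.1 to 59.6) in the knockout and 204 CPM (180 to 230) in the control. The per-cell counts ran from 0 to 14 UMIs with a median of 0 in the knockout and from 0 to 17 with a median of 6 in the control, so the ranges overlapped. Counts of 3 or more were found in 6 knockout and 33 control cells. Its log2 ratio was -2.12 (-2.54 to -1.73), a 4.36-fold lower level. It was -1.72 (-2.15 to -1.31) without the cells rich in Klf1, and among the cells that remained it was -2.06 in female and -1.94 in male cells. Over 19 alternative settings the ratio lay between -4.58 and -1.39. In thinned cells, Ccr2 was detected in 27.3% (14.96 to 42.8) of the knockout and 82.1% (66.5 to 92.5) of the control, while erythroid cells gave 0.236% and 0.442%.

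The other monocyte lineage genes were mixed around this. Of 17 measured genes of the 24 listed, 9 were lower and 1 was higher, beside 4.54% and 8.14% of all genes. Their median log2 ratio was -0.62, against 0.04 over all genes. Without the cells rich in Klf1, 7 were lower and 2 higher, beside 8.04% and 12.9% of all genes, and the list's median was -0.36. Csf1r itself was at 141 and 153 CPM, a log2 ratio of -0.12 (-0.41 to 0.17) that became 0.35 (0.04 to 0.65) without those cells. The fractalkine receptor Cx3cr1 was at 56.8 and 48.0 CPM, a ratio of 0.24 (-0.25 to 0.75) that became 0.84 (0.31 to 1.39). The sexes went opposite ways once those cells were left out, with Csf1r at -0.70 in female and 0.89 in male cells and Cx3cr1 at -0.36 and 1.60.

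Several members of the list were lower with either set of cells, but not when the gate was applied to thinned UMIs. Ms4a6c, a membrane protein of myeloid cells, was at 131 and 269 CPM, with a log2 ratio of -1.04 (-1.31 to -0.78) in all cells and -0.57 (-0.85 to -0.30) without Klf1-rich cells. Its relative Ms4a4c was at 12.2 and 37.2 CPM, with ratios of -1.60 and -1.34. Gated on thinned UMIs, Ms4a6c was at -0.22, Ms4a4c at -0.27 and Lyz2 at -0.27. Lyz2, the lysozyme of monocytes and granulocytes, was at 185 and 338 CPM, with ratios of -0.87 (-1.10 to -0.64) and -0.69. Its counts were concentrated, with a median of 2 UMIs and a highest cell of 39 in the knockout and a median of 1 and a highest cell of 100 in the control. F13a1, the coagulation factor subunit of monocytes, was seen in 4 of 47 knockout cells and 17 of 41 control cells. Its log2 ratio of -0.74 (-1.33 to -0.15) rested on few cells and varied with the cells used. The ratio was -0.09 without Klf1-rich cells, but within each sex of these cells it was -1.29 in female and -3.20 in male cells. Gated on thinned UMIs it was -0.86. In thinned cells F13a1 was detected in 6.82% (1.43 to 18.7) and 38.5% (23.4 to 55.4).

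One monocyte gene went the other way. Clec12a, an inhibitory lectin receptor of myeloid cells, was at 159 CPM (139 to 181) in the knockout and 86.7 CPM (71.4 to 104) in the control. Its median was 4 UMIs per cell against 2, with highest cells of 15 and 12. The log2 ratio was 0.87 (0.54 to 1.22), and 1.24 (0.90 to 1.60) without the cells rich in Klf1, with 0.90 in female and 1.42 in male cells. With Mpo plus Prtn3 limited to under 10 UMIs the ratio was 0.25.

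**Figure D3:**
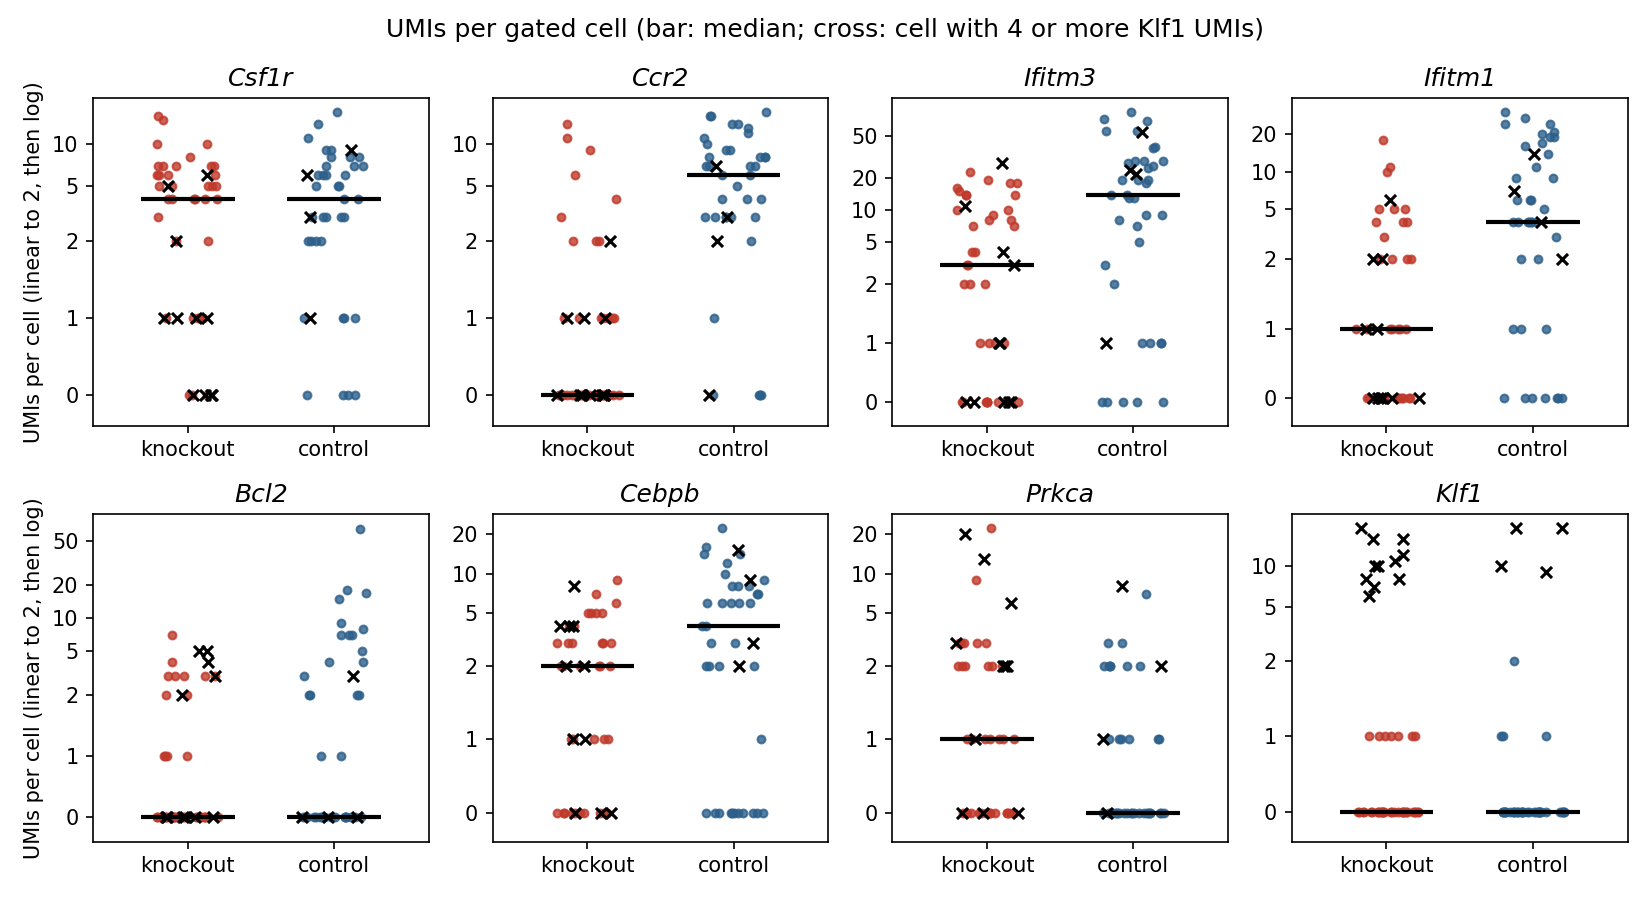
UMIs per gated cell (vertical axis, linear to 2 and then logarithmic) of 8 genes in the knockout and control libraries, with a bar at the median and crosses for cells with 4 or more Klf1 UMIs. Csf1r has a median of 4 in both libraries, whereas Ccr2 has medians of 0 and 6 and Ifitm3 of 3 and 14, and the points of the libraries overlap for every gene.

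The interferon-induced transmembrane genes, whose products hold back the entry of viruses, were the largest group among the lowest genes. Ifitm3 was at 203 CPM (180 to 228) in the knockout and 661 CPM (617 to 707) in the control. Its median was 3 UMIs per cell, at most 28, against 14, at most 83. The log2 ratio was -1.70 (-1.90 to -1.51), and -1.34 (-1.56 to -1.13) without Klf1-rich cells, with -1.86 in female and -1.55 in male cells. Ifitm1 was at 69.0 and 266 CPM, a log2 ratio of -1.95 (-2.29 to -1.62) that became -1.57 (-1.93 to -1.22), with -0.81 in female and -2.995 in male cells. Ifitm6 was at 36.7 and 78.2 CPM, with ratios of -1.09 (-1.61 to -0.59) and -0.71, and Ifitm2 at 149 and 214 CPM, with -0.52 and -0.38. Gated on thinned UMIs, Ifitm6 was at -0.16 and Ifitm2 at -0.37, while Ifitm3 stayed at -1.02 and Ifitm1 at -1.63. All of them lie side by side on chromosome 7 and are similar in sequence, so reads that fit more than 1 of them are uncertain.

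The wider interferon list moved in part with them. Of 12 measured genes of 25 listed, 7 were lower, none was higher and all 12 had a ratio below 0, with a median of -0.59. Over all genes 4.54% were lower and 8.14% higher, and 2869 of 6427 had a ratio below 0. Without the cells rich in Klf1, 5 of the 12 were lower, beside 8.04% of all genes. Then 9 of the 12 were below 0, and their median was -0.40. Ifi203, a nucleic acid sensing family member, was at 178 and 345 CPM, with log2 ratios of -0.96 (-1.19 to -0.73) and -0.69, and Ifi27l2a at 15.8 and 31.0 CPM, with -0.97 and -1.62. Mndal, of the same chromosome 1 family as Ifi203, is not on the list and was at 200 and 438 CPM, with ratios of -1.13 (-1.34 to -0.92) and -0.73. Reads of this family are likewise uncertain. Gated on thinned UMIs, Ifi203 was at -0.44, Mndal at -0.41 and Ifi27l2a at -1.71, and Ifi203 was above 0, at 0.27, in female cells without Klf1-rich cells. The broadly expressed Ly6e was at 433 and 477 CPM, a ratio of -0.14. The 7 lower members were Ifitm1, Ifitm2, Ifitm3, Ifitm6, Ifi203, Ifi27l2a and the tetherin gene Bst2. Among the receptors, Ifngr2 was at 49.6 and 89.8 CPM, with -0.86 and -0.60 and with -0.02 when gated on thinned UMIs, and Ifnar2 at 282 and 331 CPM, with -0.23 and 0.17.

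The promoters of the 4 measured Ifitm genes are shown because these neighbours were lower together. Each line gives the 250 bases before the start in RefSeq (GRCm38.p6) on the gene's own strand, with motif matches in capitals. Ifitm1 is on the plus strand and the others are on the minus strand. The Ifitm1 window is chr7:140967826-140968075, the Ifitm3 window chr7:141010745-141010994, the Ifitm2 window chr7:140955962-140956211 and the Ifitm6 window chr7:141016893-141017142.
Ifitm1: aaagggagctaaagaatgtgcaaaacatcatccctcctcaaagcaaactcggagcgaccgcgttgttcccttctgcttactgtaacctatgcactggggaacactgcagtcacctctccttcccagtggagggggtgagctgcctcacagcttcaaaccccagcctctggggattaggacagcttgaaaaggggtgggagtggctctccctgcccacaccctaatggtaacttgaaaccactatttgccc
Ifitm3: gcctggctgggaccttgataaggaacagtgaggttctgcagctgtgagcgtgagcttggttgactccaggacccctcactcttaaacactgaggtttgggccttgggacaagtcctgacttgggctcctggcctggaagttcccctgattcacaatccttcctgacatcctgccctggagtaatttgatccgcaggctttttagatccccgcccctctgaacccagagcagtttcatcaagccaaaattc
Ifitm2: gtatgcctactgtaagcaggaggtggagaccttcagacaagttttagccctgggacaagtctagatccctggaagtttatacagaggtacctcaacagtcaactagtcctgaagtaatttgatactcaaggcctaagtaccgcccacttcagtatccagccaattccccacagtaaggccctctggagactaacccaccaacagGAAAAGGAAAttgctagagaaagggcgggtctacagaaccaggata
Ifitm6: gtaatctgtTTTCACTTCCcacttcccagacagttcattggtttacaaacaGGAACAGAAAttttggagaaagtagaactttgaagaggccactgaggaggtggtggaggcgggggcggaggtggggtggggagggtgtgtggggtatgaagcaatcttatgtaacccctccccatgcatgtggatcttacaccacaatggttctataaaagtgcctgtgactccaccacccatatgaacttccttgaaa
The motifs searched on both strands were GAGGAAGT for PU.1, TTGCGNAA for C/EBP, AGATAAG for GATA, a composite of ETS and IRF factors (GGAA and GAAA with any 2 bases between) and the interferon-stimulated element (TTTC and TTTC with any 2 bases between). The Ifitm2 window holds the interferon-stimulated element on the reverse strand, the Ifitm6 window holds the ETS-IRF composite once on each strand, and the Ifitm1 and Ifitm3 windows, of the most lowered genes, hold none of the 5. Of 27025 promoters, 1 per gene by its first listed start, 3.04% held the interferon-stimulated element, 2.38% the composite, 2.44% GAGGAAGT, 0.670% TTGCGNAA and 2.78% AGATAAG. The interferon-stimulated element was found in 3 of the 9 interferon genes with a sequence and in 1 of 10 lower genes, and no motif in the 10 higher genes with a sequence. A second listed start of Ifi203, not counted here, holds it as well. No match overlapped another in the windows shown. These matches describe letters only.

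Bcl2, which protects cells from apoptosis, was at 38.1 CPM (28.6 to 49.9) in the knockout and 141 CPM (121 to 163) in the control. It was detected in 18 of 47 and 20 of 41 cells, so the libraries differed more in the amount per cell than in the number of cells. The highest knockout cell held 7 UMIs and the highest control cell 65, and 5 and 12 cells held 4 or more. The log2 ratio was -1.89 (-2.36 to -1.44), -1.48 without the highest cell of each library and -2.05 (-2.62 to -1.51) without Klf1-rich cells. Over 19 alternative settings it lay between -2.22 and -1.33. The other measured members of the family were closer to 0, with Mcl1 at -0.21, Bax at 0.01 and Pmaip1 at -0.65 (-1.5 to 0.18). Bcl2 lies at chr1:106538178-106714274 on the minus strand.

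Among the transcription factors of myeloid and dendritic cells, the lineage factors Spi1 and Zeb2 had ratios near 0 and several others did not. Of 23 measured genes of 35, 5 were lower and 3 higher, beside 4.54% and 8.14% of all genes. The median log2 ratio of the 23 was -0.13. Without Klf1-rich cells 6 were lower and 3 higher, beside 8.04% and 12.9% of all genes. Spi1, which encodes the myeloid factor PU.1, was at 293 and 327 CPM, a ratio of -0.16 (-0.36 to 0.04). Zeb2, a repressor needed for monocytes and plasmacytoid cells, was at 467.5 and 454 CPM, a ratio of 0.04 (-0.12 to 0.21). Both ratios were above 0 without the Klf1-rich cells, at 0.29 and 0.36.

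Cebpb, a factor of maturing monocytes, was at 79.8 CPM (65.7 to 96.1) and 168 CPM (146 to 192). Its median was 2 UMIs per cell, at most 9, in the knockout and 4, at most 22, in the control, and it was detected in 34 of 47 and 30 of 41 cells. The log2 ratio was -1.07 (-1.42 to -0.74), -0.80 (-1.18 to -0.42) without Klf1-rich cells, and -0.22 when cells were gated on thinned UMIs. Klf4, a second factor of the monocyte lineage, was at 17.3 and 44.1 CPM, with ratios of -1.35 (-2.11 to -0.64) and -1.04, but it was above 0 in female cells at 1.64, where the control had 5 cells, and at -0.12 when gated on thinned UMIs. Nfil3, a factor of dendritic and innate lymphoid development, was at 12.95 and 35.6 CPM, with ratios of -1.46 (-2.33 to -0.65) and -1.65. Runx1, the factor that founds blood formation, was higher, at 460 CPM (425 to 497) and 302 CPM (273 to 333). Its ratio was 0.61 (0.42 to 0.79), and 0.79 (0.57 to 1.002) without Klf1-rich cells, with 0.38 in female and 0.43 in male cells.

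Few genes of the dendritic branches reached the level compared here. Of 7 measured genes of the conventional dendritic list of 20, 2 were lower and 1 higher, beside 4.54% and 8.14% of all genes. Batf3, the factor of type 1 dendritic cells, was at 24.5 CPM (16.9 to 34.2) and 58.8 CPM (46.4 to 73.6), with a log2 ratio of -1.27 (-1.90 to -0.67) and -0.996 (-1.68 to -0.35) without Klf1-rich cells. In thinned cells it was detected in 25% (13.2 to 40.3) and 51.3% (34.8 to 67.6), and in 0.0393% and 0.0768% of erythroid cells. Cadm1, an adhesion molecule of the same cells, was at 12.2 and 44.1 CPM in 8 and 22 cells, with ratios of -1.85 (-2.73 to -1.05) and -1.35, and -0.40 when gated on thinned UMIs. Cd24a, at 115 and 66.6 CPM, was the higher member, but it is also an erythroid gene and its ratio of 0.79 was 0.35 (-1.07 to 1.77) without Klf1-rich cells. Id2, which favours conventional over plasmacytoid cells, was at 263 and 353.7 CPM, a ratio of -0.43 (-0.63 to -0.22) that was 0.63 in female cells.

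Of the plasmacytoid list of 18, 4 genes were measured and 2 were lower with either set of cells. Of all genes, 4.54% were lower, and 8.04% without Klf1-rich cells. Runx2 was at 97.8 and 177 CPM, with log2 ratios of -0.86 (-1.18 to -0.55) and -0.70, although it was above 0 in female cells at 2.44. Tcf4, the defining factor of this branch, was at 94.9 and 128 CPM, with -0.43 and -0.29. Siglech, a surface receptor of plasmacytoid cells, was below the level filter and had UMIs in 2 of 47 and 7 of 41 cells. The MHC class II genes gave no stable picture. Cd74 was at 120 and 102 CPM in 11 and 15 cells, with ratios of 0.23 (-0.10 to 0.57) and -0.48 (-0.91 to -0.06), and H2-Aa was carried by 5 and 3 cells.

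**Figure D4:**
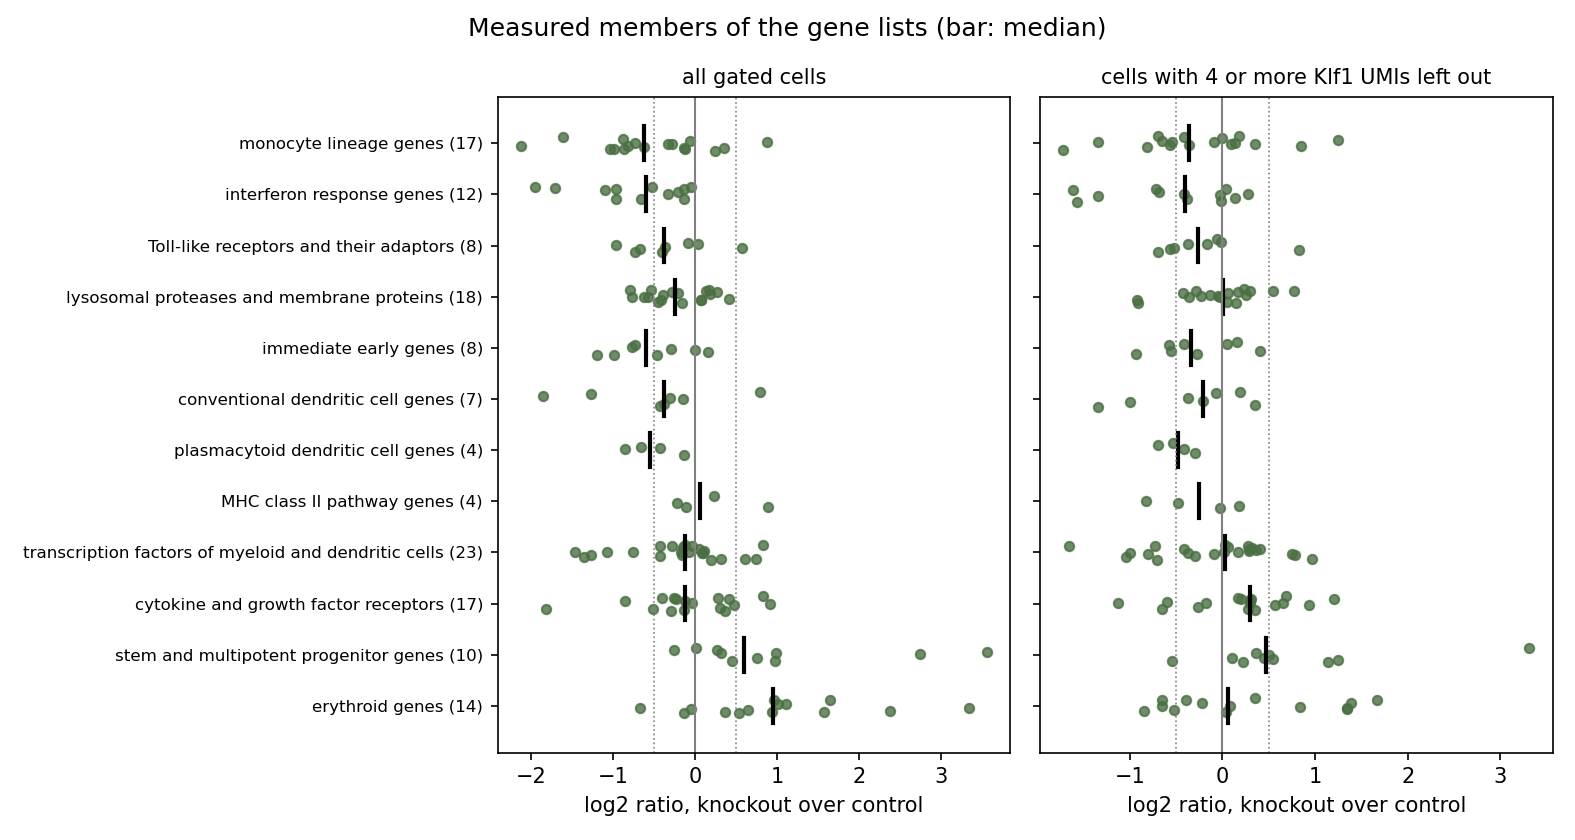
Log2 ratio, knockout over control (horizontal axis), of each measured member of 12 gene lists, 1 point per gene, with a bar at the list's median and the number measured in brackets. The left panel uses all gated cells and the right panel leaves out cells with 4 or more Klf1 UMIs; the erythroid median moves from 0.95 to 0.06, whereas the monocyte and interferon medians stay below 0 at -0.36 and -0.40.

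Cytokine receptors split by gene. Of 17 measured of 24, 3 were lower and 2 higher, and 3 and 5 without the cells rich in Klf1. Of all genes, 4.54% were lower and 8.14% higher, and 8.04% and 12.9% without those cells. Il7r, a lymphoid receptor also seen on fetal myeloid progenitors, was at 12.95 and 45.7 CPM in 8 and 17 cells, with log2 ratios of -1.82 (-2.67 to -1.04) and -1.13. Tgfbr1 was at 78.4 CPM (64.4 to 94.6) and 44.1 CPM (33.4 to 57.2), with ratios of 0.83 (0.35 to 1.32) and 1.21 (0.69 to 1.74). Kit, the receptor used for the sort, was at 58.3 and 31.0 CPM, with ratios of 0.91 (0.35 to 1.496) and 0.93 (0.11 to 1.78), and 0.28 when gated on thinned UMIs. The receptors for GM-CSF, G-CSF and interleukin 6 were within 0.5 of 0 in both sets of cells, from -0.29 for Csf2rb to 0.31 for Csf2ra, but Csf2ra was at 0.67 and Il6ra at 0.52 when gated on thinned UMIs.

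Among the Toll-like receptors and their adaptors, 8 of 24 genes were measured, 3 lower and 1 higher, beside 4.54% and 8.14% of all genes. Cd180, the membrane partner of Ly86, was at 56.1 and 109 CPM, with 1 and 3 UMIs as the median per cell and 5 and 12 in the highest. Its log2 ratio was -0.96 (-1.38 to -0.55), -0.70 (-1.15 to -0.26) without Klf1-rich cells and -0.25 when gated on thinned UMIs. The other lower members were Irak4 and Irak1, at -0.73 (-1.54 to 0.05) and -0.67 (-1.23 to -0.12), and the adaptor Myd88 was the higher one at 0.57 (-0.18 to 1.35). Gated Ly86 itself, at 193 and 283 CPM, helped to choose the cells.

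Of the highest genes by rank, 7 kept a log2 ratio above 0.5 with an interval above 0 when Klf1-rich cells were left out. Commd10, which belongs to a complex that sorts endosomal cargo, was at 82.7 CPM (68.3 to 99.3) and 36.4 CPM (26.7 to 48.4), in 37 of 47 and 27 of 41 cells. Its ratio was 1.18 (0.68 to 1.71), and 1.60 (1.03 to 2.19) without Klf1-rich cells, and lay between 0.91 and 1.98 over 19 alternative settings. In thinned cells it was detected in 68.2% (52.4 to 81.4) and 28.2% (15 to 44.9), against 31.9% and 23.2% of erythroid cells. Susd1, a membrane protein with sushi domains, was at 118 CPM (101 to 137) and 58.1 CPM (45.7 to 72.8), with ratios of 1.02 (0.62 to 1.44) and 1.15 (0.63 to 1.68), and 0.70 to 1.39 over the alternatives.

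The other genes of this set depended more on the cells used. Prkca, protein kinase C alpha, was at 82.0 CPM (67.6 to 98.5) and 32.5 CPM (23.4 to 43.9), with medians of 1 and 0 UMIs. Its log2 ratio was 1.34 (0.81 to 1.88) and 1.42 (0.78 to 2.08) without Klf1-rich cells, but 2.72 in female and 0.31 in male cells, and 0.28 when gated on thinned UMIs. It was lowest, at 0.09, with the Flt3 and Ighm cells kept, and 1 knockout cell held 22 UMIs. Pde4d, a cyclic AMP phosphodiesterase, was at 197 and 96.8 CPM, with 1.03 (0.72 to 1.34) and 1.21 (0.70 to 1.74), and 0.31 when gated on thinned UMIs. Atxn1, Tpm1 and the sialyltransferase St6galnac3 were at 0.95, 0.95 and 0.88, and at 0.99, 0.86 and 1.16 without Klf1-rich cells. Chchd10, Ccne1, Mt1, Meis1 and Zfpm1, the last a cofactor of the erythroid factor GATA1, did not keep an interval above 0. Zfpm1 fell to 12 against 7 UMIs, and Chchd10 and Mt1 to ratios of -0.05 and 0.37.

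Of the settings that changed the cells used, applying the gate to cells thinned to 15000 UMIs kept the fewest of the main calls. It gave 55 knockout and 86 control cells. Of the genes higher by rank, 4 of 12 still had a log2 ratio of at least 0.5, namely Commd10, Susd1, Atxn1 and Meis1. Of the genes lower by rank, 5 of 12 still had one of at most -0.5, namely Ccr2, Ifitm1, Ifitm3, Bcl2 and Bex6. Over all genes, 128 of the 523 higher and 37 of the 292 lower genes were called again in the same direction. Of the monocyte list 2 were then lower and 3 higher, with Csf1r at 0.64 and Cx3cr1 at 0.67, and of the erythroid list 12 were lower and none higher. Of all 6356 genes compared in that setting, 247 were lower and 484 higher.

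Brd9 itself was lower in the knockout gate but was not absent. It had 17 UMIs in 11 of 47 knockout cells and 46 UMIs in 24 of 41 control cells, or 12.2 CPM (7.12 to 19.6) and 35.6 CPM (26.1 to 47.5). The log2 ratio was -1.54 (-2.44 to -0.71), and -0.98 (-2.08 to 0.03) without Klf1-rich cells. Thinned gated cells had Brd9 in 13.6% and 35.9%, and erythroid cells in 9.03% and 34.0%, so the share was lower in both kinds of cell. Tags from the 3' end can lie outside the floxed exons, so remaining UMIs do not measure intact Brd9. Of the complex's other specific subunits, Bicral was at 51.1 and 24.8 CPM, with ratios of 1.04 (0.42 to 1.69) and 1.25 (0.46 to 2.06), and Bicra at 46.0 and 32.5 CPM, with 0.50 (-0.08 to 1.10) and 0.63 (-0.08 to 1.35). A list of other BAF and PBAF subunits, some of them shared between the complexes, had 21 measured genes. None of them and none of 11 measured CTCF and cohesin genes was higher or lower, beside 8.14% and 4.54% of all genes.

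Markers of other cells moved with the libraries in 1 list above all. Of 14 measured erythroid genes of 19, 10 were higher and 1 lower, beside 8.14% and 4.54% of all genes. The summed level of the erythroid list was 2430 CPM in the knockout and 1033 in the control. Without Klf1-rich cells 5 were higher and 4 lower, at 263 and 241 CPM, beside 12.9% and 8.04% of all genes. Among stem and multipotent progenitor genes, 5 of 10 measured were higher and none lower, at a sum of 1085 and 780 CPM, and 4 were higher and 1 lower without those cells, at 932 and 741 CPM. Angpt1, a secreted ligand of stem cell niches, was at 109 and 9.29 CPM in 13 and 5 cells, and 1 knockout cell held 75 UMIs. No measured gene came from the lists of tissue macrophages, mast cells and basophils, hepatocytes or endothelial and stromal cells, whose sums were at most 39.6 and 26.3 CPM. The part of erythroid transcripts in the other differences is shown only by the values given without Klf1-rich cells.

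Genes of early response and of lysosomes were lower in part. Of 8 measured immediate early genes, 4 were lower, and 3 without Klf1-rich cells, 1 of these with an interval below 0. Of all genes 4.54% were lower, and 8.04% without Klf1-rich cells. In female cells without Klf1-rich cells, 6 were lower and none higher, and in such male cells 2 were lower and 4 higher. Of all genes, 15.8% were lower and 28.7% higher in those female cells, and 21.7% and 14.9% in those male cells. Fos was at 21.6 and 49.5 CPM, with log2 ratios of -1.20 (-1.88 to -0.55) and -0.57 (-1.29 to 0.11), and Ier2 at 39.6 and 78.2 CPM, with -0.98 (-1.48 to -0.50) and -0.94 (-1.53 to -0.37). These genes also respond to cell handling, and the part of handling was not tested. Of 18 measured lysosomal genes, the proteases Ctss, Ctsz, Ctsh, Ctsc and Lgmn were lower and none was higher, beside 4.54% and 8.14% of all genes. Gated on thinned UMIs, Ctss was at 0.09, Ctsz at 0.05, Ctsh at 0.21, Ctsc at -0.12 and Lgmn at -0.605. Ctsh was at 56.8 and 98.3 CPM, with -0.79 (-1.22 to -0.37) in all cells and -0.42 without Klf1-rich cells, where 2 of the 18 were lower and 2 higher. The sexes differed here, with 8 lower and none higher in female cells without Klf1-rich cells and none lower and 5 higher in such male cells. The shares of all genes in those cells are the ones given above. Of 24 measured S-phase genes 2 were lower and none higher, and of 24 genes of mitosis 2 were higher and none lower, which is close to the 4.54% and 8.14% of all genes. Without Klf1-rich cells, 2 mitosis genes were higher and 2 lower.

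The same genes were also set against 2 related gates of the same libraries. Genes named by rank were chosen for extreme ratios in this gate, so less extreme ratios elsewhere can follow from that choice. The differences are therefore a description and cannot show which ratios are particular to the gate. The granulocyte-monocyte gate of 30 or more Mpo plus Prtn3 UMIs held 582 and 921 cells, and the gate of cells with 2 or more UMIs of both Flt3 and Ighm held 76 and 100. Intervals of the differences between gates again cover counting error only, and all values in this comparison leave out cells rich in Klf1. Ccr2 was low in all 3 gates, with log2 ratios of -1.72 here, -1.82 in the Mpo Prtn3 gate and -2.83 in the Flt3 Ighm gate. It differed by 0.10 (-0.38 to 0.58) from the former and by 1.11 (0.28 to 1.94) from the latter, where it was lower still. Commd10 was high in all 3, at 1.60, 1.49 and 1.61. Its differences from the gates were 0.10 (-0.47 to 0.68) and -0.01 (-0.74 to 0.72).

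The Bcl2 ratio was lower here than in both gates, but 1 control cell of this gate held 65 Bcl2 UMIs and the next 18. The log2 ratio of Bcl2 was -2.05 here, -0.66 in the Mpo Prtn3 gate and -0.56 in the Flt3 Ighm gate. These are differences of -1.38 (-1.93 to -0.84) and -1.49 (-2.10 to -0.88), with intervals that do not cover such uneven counts. Pde4d was at 1.21 here, -0.18 and 0.42, with differences of 1.39 (0.90 to 1.89) and 0.79 (0.23 to 1.36). Prkca was at 1.42, 0.73 and 0.21, with differences of 0.68 (0.06 to 1.31) and 1.21 (0.54 to 1.88). These intervals leave out the spread between cells, and 1 knockout cell of this gate held 22 Prkca UMIs. With the Flt3 and Ighm cells and the Klf1-rich cells kept in this gate, the Prkca ratio was 0.09. Cebpb differed from the Mpo Prtn3 gate, at -0.80 against 0.15, by -0.94 (-1.32 to -0.57), and less clearly from the Flt3 Ighm gate, by -0.48 (-1.02 to 0.06). Ifitm3 and Ifitm1 differed from the Flt3 Ighm gate by -0.83 (-1.14 to -0.52) and -1.20 (-1.62 to -0.78), and from the Mpo Prtn3 gate by -0.19 (-0.42 to 0.04) and -0.25 (-0.61 to 0.12).

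**Figure D5:**
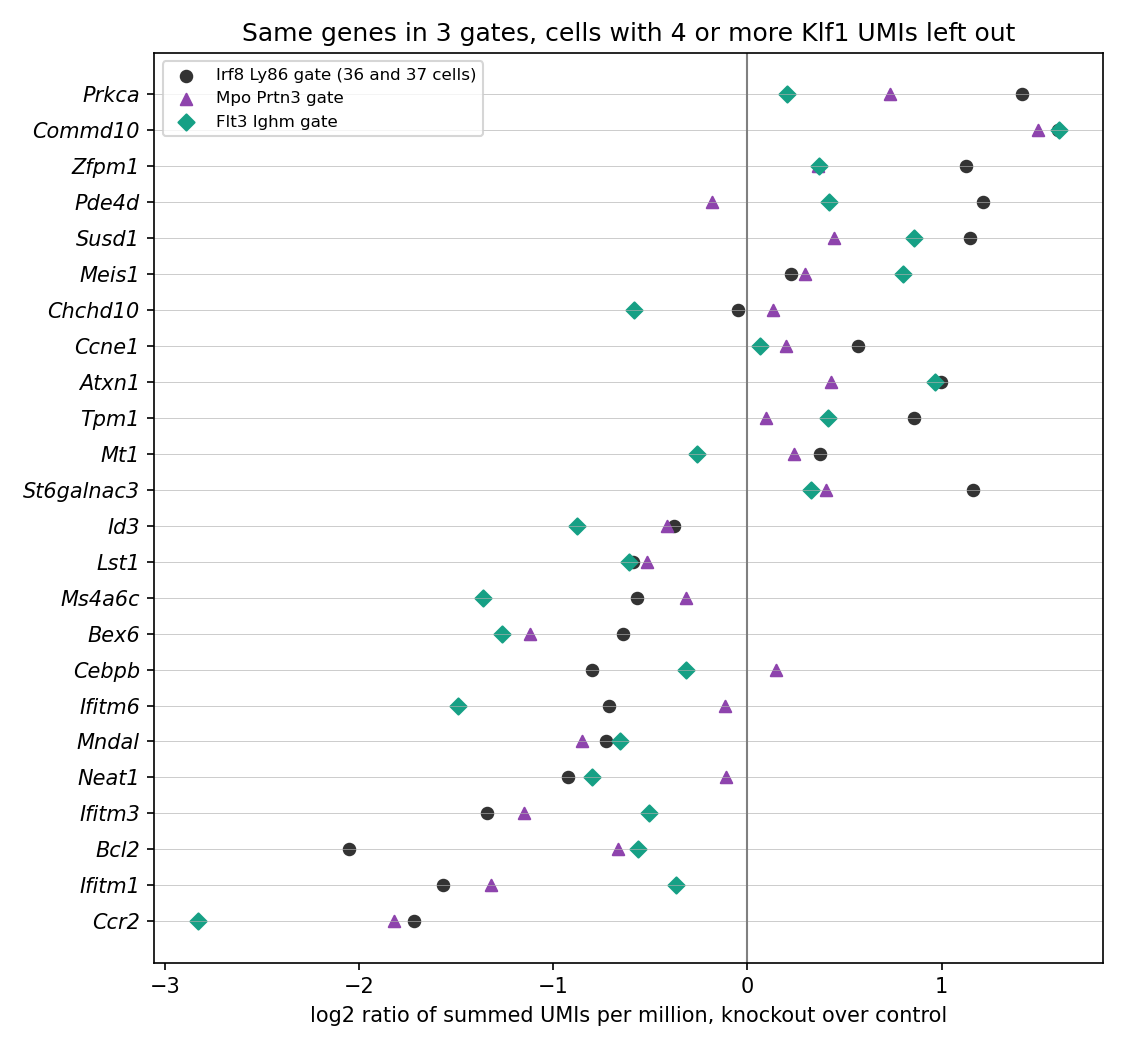
Log2 ratio of summed CPM, knockout over control (horizontal axis), of the 24 genes named by rank in 3 gates, with cells of 4 or more Klf1 UMIs left out. The genes were ranked in the Irf8 Ly86 gate, so less extreme ratios in the other gates can follow from that choice. Ccr2 and Commd10 lie far from 0 in all 3 gates. Bcl2 is at -2.05 in the Irf8 Ly86 gate, where 1 control cell held 65 of its UMIs, and at -0.66 and -0.56 in the others.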

How the data were processed

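The deposited values were UMI counts per gene and barcode, whole numbers with no normalization, from Lineage-negative c-Kit-positive fetal liver cells of 1 Brd9 knockout and 1 control library. Per the submitters' processing notes, reads were handled with Cell Ranger 7.2.0 on mm10. The sources used here do not give the setting for intronic reads.

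Cells were kept with at least 1000 genes, 2000 UMIs and at most 10% mitochondrial UMIs, which left out 288 and 299 barcodes, and gated on raw counts. UMIs were summed over gated cells per library and divided by all their UMIs to give CPM. Intervals were Poisson for CPM, Clopper-Pearson for shares and conditional exact for ratios of levels, all at 95%. A normal approximation on the log scale was used for differences between gates and for ratios of shares. With 1 library per genotype no test was run. Genes with a mean of at least 20 CPM were compared, leaving out gate genes, Xist, Tsix and Y-linked, mitochondrial, ribosomal protein, haemoglobin and predicted genes from the ranks. Ranked genes were the 12 highest and 12 lowest with a mean of at least 50 CPM and UMIs in at least 20 cells of the higher library, by the weaker of the ratio over all cells and that without the cell with most UMIs. Members of 32 gene lists were named as well. The cells and lists were chosen with earlier results of these data known, and cells rich in Klf1 were singled out by a limit of 4 UMIs.

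Doublets were called per library with Scrublet in scanpy 1.11.5 at an expected rate of 6%, which marked 3.48% and 3.38% of kept cells, and were kept in the main values. Female cells had at least 3 Xist UMIs and at most 1 Y-linked UMI, and male cells at most 1 Xist UMI. Shares of cells were compared after thinning each cell to 15000 UMIs. Poisson counts were simulated for 6470 genes from the summed control levels, with no spread between cells. On these the interval held the true ratio for 92 to 98% of changed genes. Of unchanged genes, 6.99% passed the limit of 0.5 by counting error alone. The interval assumes the same counting model, so this checks the computation only and leaves out the uneven counts of single cells. Python 3.11.15, numpy 2.4.6, scipy 1.17.1 and pandas 2.3.3 were used. Promoters were RefSeq sequences of GRCm38.p6. The alternatives changed the gate, the quality filter, doublets, sex, the weight of cells, scaling, the level filter and the limit on the ratio. The added alternatives, chosen after seeing the data, were values within each sex without cells rich in Klf1, an interval that leaves out 0 and the motif of the interferon-stimulated element.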

Additional observations from a re-analysis of the deposited data

How the results depend on the processing

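Gates hold 47 and 41 cells, so a gene near 20 CPM rests on about 27.8 and 25.8 UMIs, and counting error alone moves many such ratios past 0.5. No paired analysis was possible because the labels give 1 library per genotype with no shared replicate numbers, and leaving out a replicate is likewise not possible. The share ratio, 1.16, was 0.653 when gated on thinned UMIs and, without cells rich in Klf1, 1.88 in female and 0.764 in male cells. It lay between 0.839 and 1.63 under the other settings.

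The 523 higher genes became 1362 with Mpo plus Prtn3 under 10, 828 without cells rich in Klf1, 945 without cells of 2 or more Flt3 UMIs and 279 with the Flt3 and Ighm cells kept. They were 1272 in female and 859 in male cells, and 1607 and 1023 in those without cells rich in Klf1. Levels of at least 10 or 50 CPM and no limit gave 943, 141 and 3132, and a log2 ratio beyond 1 gave 69. The 292 lower genes became 917, 480, 573 and 161 under the first 4 of these settings and 439 without Scrublet doublets. They were 1115 in female and 734 in male cells, and 1116 and 1155 without cells rich in Klf1. The level limits gave 553, 87 and 2900, a ratio beyond 1 gave 35 and an interval that leaves out 0 gave 181. Gated on thinned UMIs, the counts were 484 and 247, but they shared 128 and 37 genes with the main calls. The cause of these shifts was not tested.

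Of 456 values of the ranked genes under alternatives, 441 kept their direction and 15 reversed it. The genes were ranked on their ratios in these same cells, many of which the alternatives share, so a kept direction is no independent check. Ccr2, Ifitm3, Bcl2, Commd10 and Susd1 kept a log2 ratio of at least 0.5 in size under all 19. Among ranked genes and members of the monocyte, dendritic, MHC class II, transcription factor, receptor, Toll-like and Brd9 complex lists with a main log2 ratio of at least 0.5 in size, the ratio changed sign as follows, and the cause was not tested. Gated on thinned UMIs, Zfpm1 was at -0.24, Chchd10 at -0.28, Ccne1 at -0.10, Mt1 at -0.42, Id3 at 0.055, Ctss at 0.092, Cybb at 0.098, Cd24a at -1.002, H2-Aa at -0.56, Runx3 at -0.22, Bcor at -0.011, Ifngr1 at 0.14 and Irak4 at 0.42. With limits scaled by depth, Meis1 was at -0.36 and Cd24a at -0.14. In female cells, Zfpm1 was at -0.73, Chchd10 at -0.86, Bex6 at 0.88, Bicra at -0.60, Cadm1 at 0.31, Runx2 at 1.90, H2-Aa at -2.53, Klf4 at 2.21, Irf1 at 0.72, Nfil3 at 0.21 and Il7r at 1.86. In male cells, Runx3 was at -0.42 and Bcor at -0.038. Without cells rich in Klf1, Chchd10 was at -0.049 and H2-Aa at -0.022, and without Scrublet doublets H2-Aa was at -0.12. In female cells without Klf1-rich cells, Zfpm1 was at -0.32, Mt1 at -0.028, Bex6 at 1.23, Bicra at -0.71, Cadm1 at 0.26, Cd24a at -0.65, Runx2 at 2.44, H2-Aa at -2.99, Klf4 at 1.64, Irf1 at 0.60, Nfil3 at 0.75 and Irak1 at 1.52. In male cells without them, Chchd10 was at -0.10, Meis1 at -0.64, Ctss at 0.085, Cybb at 0.017, Cd24a at -0.48, Runx3 at -1.30 and Ifngr1 at 0.021. H2-Aa was at -0.20 with Mpo plus Prtn3 under 10 and at -0.47 as a mean of per-cell CPM. Genes nearer to 0 also changed sign, with ranges over the 19 settings of -0.70 to 0.89 for Csf1r, -0.49 to 1.60 for Cx3cr1, -1.05 to 0.63 for Id2, -3.31 to 2.50 for Cd74, -0.85 to 0.26 for Tcf4 and -0.51 to 0.38 for Spi1. Female values rest on 6 control cells, or 5 without cells rich in Klf1.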

Other observations

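Lipid handling genes, which the report leaves out, changed unevenly between the libraries. Of 6 measured genes, 1 was higher and 2 were lower, and 1 and 3 without cells rich in Klf1. Of all genes, 8.14% were higher and 4.54% lower, and 12.9% and 8.04% without those cells. Apoe, a lipid-carrying protein of lipoproteins, was at 47.5 and 90.6 CPM, with a log2 ratio of -0.93 (-1.39 to -0.48), and -1.48 (-2.10 to -0.89) without those cells. It was detected in 19 and 18 cells, with a median of 0 UMIs in both libraries. Its counts were concentrated, with 38 and 21 UMIs in the highest control cells and 17 and 10 in the highest knockout cells. Lpcat2, an enzyme that remakes membrane phospholipids, was at 53.2 and 24.8 CPM, with 1.10 (0.49 to 1.75) and 1.17 (0.50 to 1.86).

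Among chemokine receptors and adhesion molecules, 14 of 22 genes were measured. Ccr1 was lower beside Ccr2, at 14.4 and 28.6 CPM, with a log2 ratio of -0.99 (-1.86 to -0.17), and -1.06 (-2.06 to -0.13) without cells rich in Klf1. Cd93, a receptor of early progenitors and myeloid cells, was at 25.9 and 15.5 CPM, with 0.74 (-0.09 to 1.61) in all cells and 1.48 (0.56 to 2.47) without those cells. The integrins Itgam, Itgb1 and Itgb2 were within 0.5 of 0 in both sets of cells.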
